A study of Mus musculus with 5 samples.

Results

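The thick ascending limb is the stretch of the nephron that takes up salt without water, and 7 genes of its transport machinery were followed here, Slc12a1, Umod, Kcnj1, Bsnd, Casr, Ptger3 and Atp1b1. They were taken by gene name from the 35478 genes listed for each library, and all 7 were among the 16394 genes that passed the filter on low counts. In this segment the apical Na-K-2Cl cotransporter encoded by Slc12a1 brings sodium, potassium and chloride into the cell, the potassium channel encoded by Kcnj1 returns potassium to the tubular fluid, and chloride leaves on the blood side through chloride channels that need the subunit encoded by Bsnd. The Na,K-ATPase, whose beta subunit is the product of Atp1b1, drives the process, while the calcium-sensing receptor (Casr) and the prostaglandin E receptor EP3 (Ptger3) restrain it. The same cells make uromodulin (Umod), the most abundant protein of normal urine.

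The RNA-seq libraries, 1 per mouse, came from kidneys of 2 Prdm16fl/fl and 3 Ksp-Cre/Prdm16fl/fl mice. All 5 were male mice aged 7 to 8 weeks, and the labels give their strain as C57BL/6J and the methods as C57BL/6J;129. Both genotypes carry floxed Prdm16 alleles, and the Prdm16fl/fl mice were littermates without Cre. Ksp-Cre places Cre recombinase under the promoter of the kidney-specific cadherin gene Cdh16, which is active in tubular epithelial cells, so that exon 9 of Prdm16 is removed there and not in other cells. Every mouse had unilateral ischemia-reperfusion injury (UIRI), with the left renal pedicle clamped for 35 minutes at 38.5°C. The right kidney was removed at day 10, and tissue was taken at day 11, so there is no uninjured kidney to which the levels could be compared. The labels give the tissue as kidney and the methods as cortex, which holds the cortical part of the thick ascending limb.

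Total counts per library lay between 14939040 and 16425161. Ksp-Cre/Prdm16fl/fl mouse 3 stood apart, with correlations of log2 CPM over genes of 0.957 and 0.960 to the other mice of its genotype, against 0.991 between those mice and 0.989 between the Prdm16fl/fl mice, and results that rest on it are given with and without it. The targeted gene Prdm16 was at 25.3 and 20.02 CPM in the Prdm16fl/fl libraries (mice 1 and 3) and at 17.1, 16.95 and 17.99 CPM in the Ksp-Cre/Prdm16fl/fl libraries (mice 1, 2 and 3, the order used throughout), a log2 fold change of -0.38 with an adjusted p of 0.259 (edgeR quasi-likelihood test). A count over the whole gene does not measure the loss of its exon 9. CPM are counts per 1000000 after TMM scaling, a fold change is Ksp-Cre/Prdm16fl/fl over Prdm16fl/fl, and p-values were adjusted by the Benjamini-Hochberg method for every gene tested.

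The labelled tissue carried a strong thick ascending limb signal in every library. In TPM, which is corrected for gene length and so can be compared between genes, Atp1b1 was highest with a mean of 2834 over the 5 libraries, followed by Umod with 1706, Slc12a1 with 246, Kcnj1 with 109 and Bsnd with 35.9. The receptors were lowest, at a mean TPM of 15.9 for Ptger3 and 13.8 for Casr. From Atp1b1 down to Bsnd this order held in each of the 5 libraries, and the ranges over libraries did not overlap between Umod and Slc12a1 or between Slc12a1 and Kcnj1. Atp1b1 and Umod overlapped slightly in their ranges, as did Kcnj1 and Bsnd, and the receptors could not be ranked, with Casr above Ptger3 in Prdm16fl/fl mouse 1 only. Atp1b1 is expressed along the whole nephron, so its level is not that of the thick ascending limb alone.

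The submitters' processing notes name a human build, hg38, for these mouse libraries, and the positions in the files differ from those of GRCm38, so their build is not known. The files place Slc12a1 at chr2:124994430-125071922 on the plus strand, Umod at chr7:119061931-119078485 on the minus strand and Kcnj1 at chr9:32283714-32310493 on the plus strand. Bsnd lies at chr4:106340653-106349440, Casr at chr16:36310947-36382605 and Atp1b1 at chr1:164264668-164285924, all on the minus strand, and Ptger3 lies at chr3:157272459-157350392 on the plus strand. The 7 genes are thus on 7 chromosomes. Whether counting used the strand is not given in the sources used here, and exons of Slc12a1 share bases with the opposite-strand genes Gm46760 and Gm14002, which had at most 14 and 52 counts, while those of Atp1b1 share bases with Nme7, which had 243 to 365.

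The promoter sequences of the carrier, of uromodulin and of the pump subunit are shown because they differ from each other in base composition. The sequences are from RefSeq (GRCm38.p6), cover the 250 bases before the annotated start, and are written 5′ to 3′ on the strand of the gene. Promoters of 6 of the 7 genes were found, with Bsnd the exception. Their GRCm38.p6 positions, which cannot be set against the gene positions above, are Umod at chr7:119479263-119479512 (minus strand), Slc12a1 at chr2:125152350-125152599 (plus strand) and Atp1b1 at chr1:164458356-164458605 (minus strand). Capitals mark CpG dinucleotides in Slc12a1 and Atp1b1 and, in Umod, the letters GTTAAT, a part of the site bound by the tubular transcription factor HNF1.
Umod: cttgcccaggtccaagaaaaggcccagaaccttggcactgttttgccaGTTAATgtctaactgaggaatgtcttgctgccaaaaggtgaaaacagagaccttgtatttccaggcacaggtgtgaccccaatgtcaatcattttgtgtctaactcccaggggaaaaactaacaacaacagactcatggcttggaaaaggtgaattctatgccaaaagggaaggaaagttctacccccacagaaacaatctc
Slc12a1: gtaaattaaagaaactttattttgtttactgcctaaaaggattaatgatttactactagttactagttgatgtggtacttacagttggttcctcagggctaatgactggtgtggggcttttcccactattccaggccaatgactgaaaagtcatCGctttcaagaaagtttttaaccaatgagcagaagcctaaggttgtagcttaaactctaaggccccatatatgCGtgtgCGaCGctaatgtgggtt
Atp1b1: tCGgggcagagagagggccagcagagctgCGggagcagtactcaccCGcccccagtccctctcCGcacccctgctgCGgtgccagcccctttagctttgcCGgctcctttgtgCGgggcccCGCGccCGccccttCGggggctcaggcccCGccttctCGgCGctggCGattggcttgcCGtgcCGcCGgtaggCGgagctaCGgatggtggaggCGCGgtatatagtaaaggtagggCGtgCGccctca

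Umod had no CpG in this window, Casr had 1, Kcnj1 had 2 and Slc12a1 had 4, whereas Ptger3 had 21 and Atp1b1 had 24. The median over 32851 promoters of this length was 6, and 7.87% had none. Both strands were searched for GTTAAT, for AAGGTCA, the core of the site of the oestrogen-related receptors and for the TATA box letters TATAAA, none of which contains another. Umod carried GTTAAT from -202 to -197 relative to the start, letters that 6.43% of all promoters hold, and the other 5 windows held none of the 3 motifs. AAGGTCA was in 4.08% of all promoters and TATAAA in 12.4%. A match describes the letters of this window and does not show that a factor binds there.

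All 7 genes were lower on average in Ksp-Cre/Prdm16fl/fl than in Prdm16fl/fl kidneys, with log2 fold changes from -0.80 for Bsnd to -0.32 for Ptger3 and a median of -0.66, against a median of 0.04 over all genes tested, of which 46% were lower. None passed an adjusted p of 0.05 in the edgeR test, a threshold that 0.976% of all genes passed, and the call that also asks for a log2 fold change of 1 in size took 0.708% of all genes. At an unadjusted p under 0.05, 3 of the 7 passed, all lower, against 11.2% of all genes. DESeq2 gave an adjusted p under 0.05 for 2 of the 7, Slc12a1 (0.0278) and Atp1b1 (0.0220), against 7.32% of all genes, and 5 of the 7 were lower at an unadjusted p under 0.05, against 10.5% of all genes. Without Ksp-Cre/Prdm16fl/fl mouse 3 all 7 were still lower, with a median of -0.43, and 2 of the 7, Slc12a1 and Casr, passed an adjusted p of 0.05, against 18.9% of all genes. In whole tissue, fewer thick ascending limb cells, less RNA per cell and a change in other cells expressing these genes cannot be told apart.

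**Figure D1:**
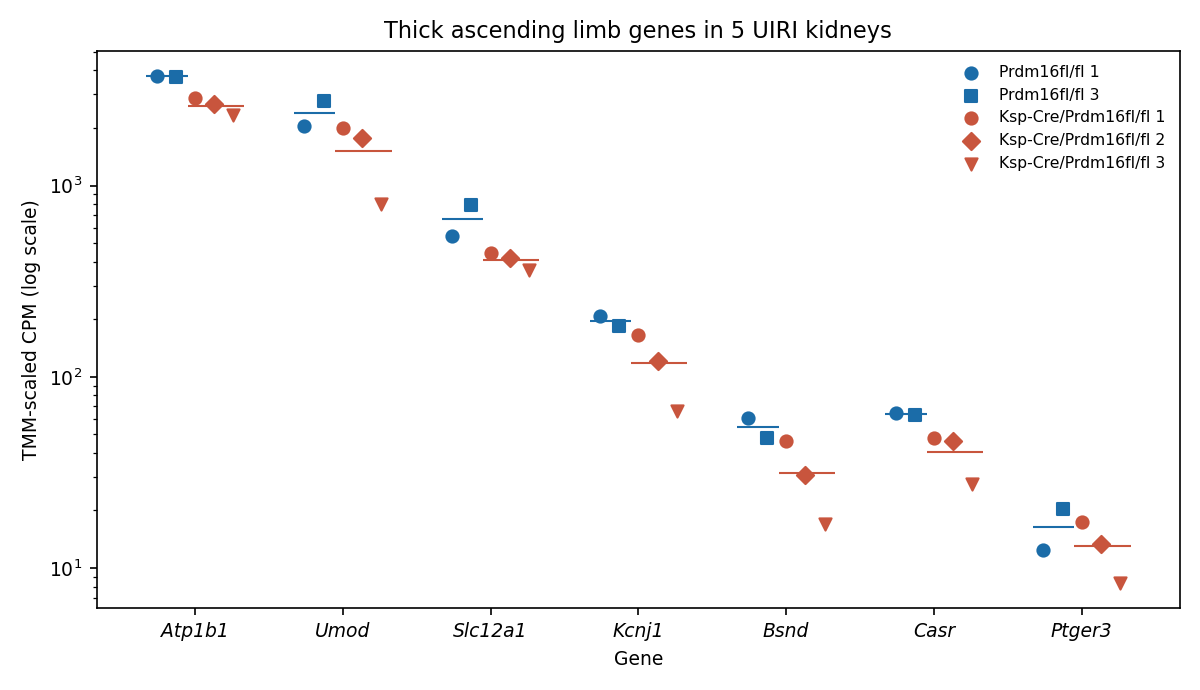
TMM-scaled CPM on a log axis for each of the 7 genes, with 1 point per mouse and a line at each genotype's mean. Ksp-Cre/Prdm16fl/fl mouse 3 (downward triangle) is the lowest of the 5 libraries for all 7 genes, and in all but Ptger3 the 3 Ksp-Cre/Prdm16fl/fl points lie below both Prdm16fl/fl points.

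Slc12a1, the target of loop diuretics, was at 542 and 788 CPM in the Prdm16fl/fl mice and at 446, 416 and 360 CPM in the Ksp-Cre/Prdm16fl/fl mice. The groups did not overlap, although the Prdm16fl/fl mice differed from each other by more than the 3 Ksp-Cre/Prdm16fl/fl mice did. The means were 665 ± 174 (SD, n = 2) and 407 ± 43.4 (SD, n = 3), a log2 fold change of -0.71 (SE 0.20, 95% interval -1.20 to -0.22) with an adjusted p of 0.146. Of the 7 genes it was one of the least affected by the outlying library: without Ksp-Cre/Prdm16fl/fl mouse 3 the log2 fold change was -0.62 (SE 0.17) and the adjusted p 0.0364, in a fit that passes 18.9% of all genes.

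Umod was at 2051 and 2772 CPM in the Prdm16fl/fl mice and at 1993, 1777 and 799 CPM in the Ksp-Cre/Prdm16fl/fl mice. Its first Ksp-Cre/Prdm16fl/fl library lay just under the lower Prdm16fl/fl library, and that of mouse 3 was at 42.4% of the mean of the other mice of its genotype. The log2 fold change of -0.66 (SE 0.39, 95% interval -1.62 to 0.30) had an adjusted p of 0.418, and it was -0.35 (SE 0.16, adjusted p 0.172) without mouse 3. The means were 2412 ± 510 (SD, n = 2) and 1523 ± 636 (SD, n = 3), and the interval of the fold change from all 5 mice included 0.

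Kcnj1, which encodes the ROMK channel that recycles potassium for the cotransporter, was at 207 and 183 CPM in the Prdm16fl/fl mice and at 166, 121 and 66.6 CPM in the Ksp-Cre/Prdm16fl/fl mice. Bsnd, whose product barttin is an accessory subunit of chloride channels, was at 61.1 and 48.1 CPM and at 46.3, 30.7 and 17.0 CPM in the same order of mice. The 2 genes ran in parallel, mouse by mouse, with a Bsnd to Kcnj1 TPM ratio between 0.306 and 0.356 in all 5 libraries. The log2 fold change of Kcnj1 was -0.73 (SE 0.35, adjusted p 0.327), and -0.44 (SE 0.16, adjusted p 0.0834) without mouse 3. That of Bsnd was -0.80 (SE 0.39, adjusted p 0.329), the largest of the 7, and -0.50 (SE 0.20, adjusted p 0.112) without mouse 3. In that mouse Kcnj1 was at 46.6% and Bsnd at 44.1% of the mean of the other Ksp-Cre/Prdm16fl/fl mice.

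Casr, the receptor through which blood calcium lowers salt and calcium uptake, was at 64.4 and 63.3 CPM in the Prdm16fl/fl mice and at 48.1, 46.4 and 27.5 CPM in the Ksp-Cre/Prdm16fl/fl mice. Its Prdm16fl/fl values were nearly the same, with a mean of 63.8 ± 0.774 (SD, n = 2), and all 3 Ksp-Cre/Prdm16fl/fl values lay below them. The log2 fold change was -0.65 (SE 0.24, 95% interval -1.24 to -0.06) with an adjusted p of 0.232, and -0.43 (SE 0.09) with an adjusted p of 0.0171 without mouse 3.

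Ptger3, through which prostaglandin E2 opposes vasopressin in this segment, was at 12.5 and 20.2 CPM in the Prdm16fl/fl mice and at 17.4, 13.4 and 8.40 CPM in the Ksp-Cre/Prdm16fl/fl mice. It was the only one of the 7 genes whose groups overlapped on this scale, and only mouse 3 lay below both Prdm16fl/fl mice. That lowest value rested on 126 reads, with a 95% Poisson interval of 105 to 150 that covers counting error only. The log2 fold change was -0.32 (SE 0.35, 95% interval -1.18 to 0.53, adjusted p 0.659). Leaving out Ksp-Cre/Prdm16fl/fl mouse 3 gave -0.08 (SE 0.23) and leaving out Prdm16fl/fl mouse 3 gave 0.07, so its direction depends on single mice.

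Atp1b1, the pump subunit, was at 3740 and 3711 CPM in the Prdm16fl/fl mice and at 2861, 2665 and 2332 CPM in the Ksp-Cre/Prdm16fl/fl mice. Relative to its mean it had the narrowest spread of the 7 genes in both groups, with means of 3725 ± 20.1 (SD, n = 2) and 2619 ± 268 (SD, n = 3), and no overlap. The log2 fold change was -0.51 (SE 0.17, 95% interval -0.93 to -0.09, adjusted p 0.195), and -0.43 (SE 0.13, adjusted p 0.0519) without mouse 3.

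**Figure D2:**
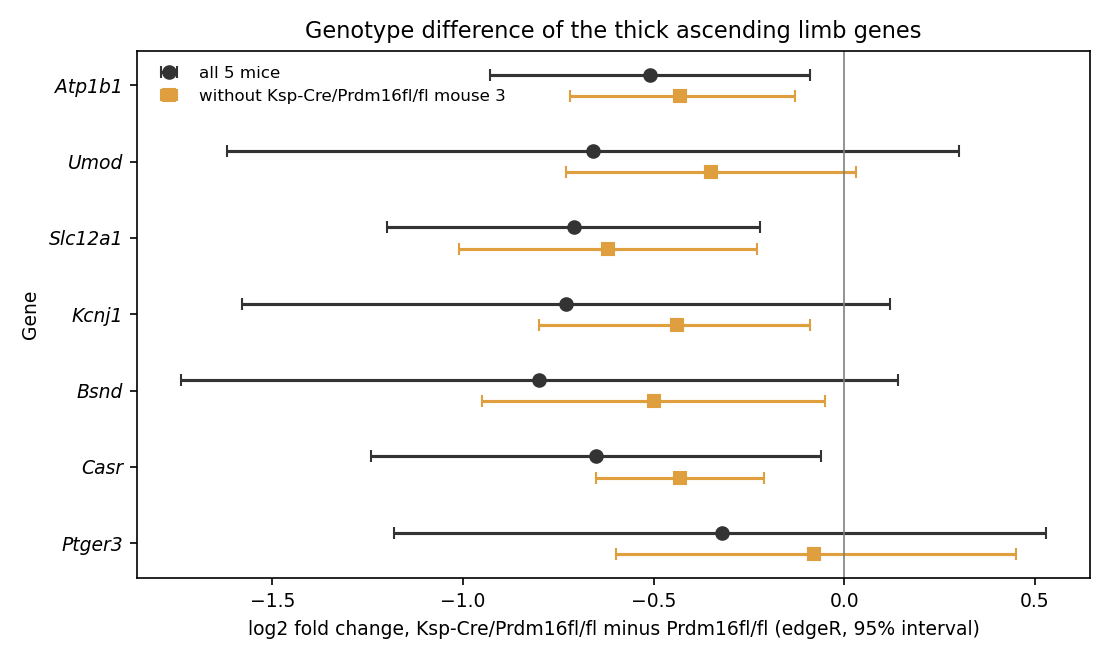
Log2 fold change of each gene between genotypes from edgeR, with its 95% interval, from all 5 mice (dark circles) and without Ksp-Cre/Prdm16fl/fl mouse 3 (orange squares). With all mice the intervals of Slc12a1, Casr and Atp1b1 exclude 0, and without mouse 3 all point estimates move toward 0 while the intervals narrow.

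The separation between genotypes depended on the scale. On TMM-scaled CPM all 3 Ksp-Cre/Prdm16fl/fl libraries lay below both Prdm16fl/fl libraries for 6 of the 7 genes, against 21.3% of all genes tested. On CPM by library size this held for 3 of 7, against 15.2% of all genes, and on the deposited TPM for 3 of 7, against 10.4%, and this count was added after seeing the data on all 3 scales. The 3 were Slc12a1, Casr and Atp1b1 on both scales. Under scaling by library size alone the median over all genes shifted from 0.04 to 0.15 in log2 fold change, and the 7 genes moved with it, to values from -0.67 for Bsnd to -0.19 for Ptger3.

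The size of the difference varied among the Ksp-Cre/Prdm16fl/fl kidneys. Relative to the mean of the Prdm16fl/fl libraries, the median log2 difference of the 7 genes was -0.26 in mouse 1, -0.48 in mouse 2 and -1.21 in mouse 3, while the median over all genes was 0.00, 0.03 and 0.00. In mice 1 and 2, 6 of the 7 genes lay below both Prdm16fl/fl libraries, and in mouse 3 all 7 did. Mouse 3 was the lowest of the 5 libraries for all 7, as it was for 32% of the genes tested.

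**Figure D3:**
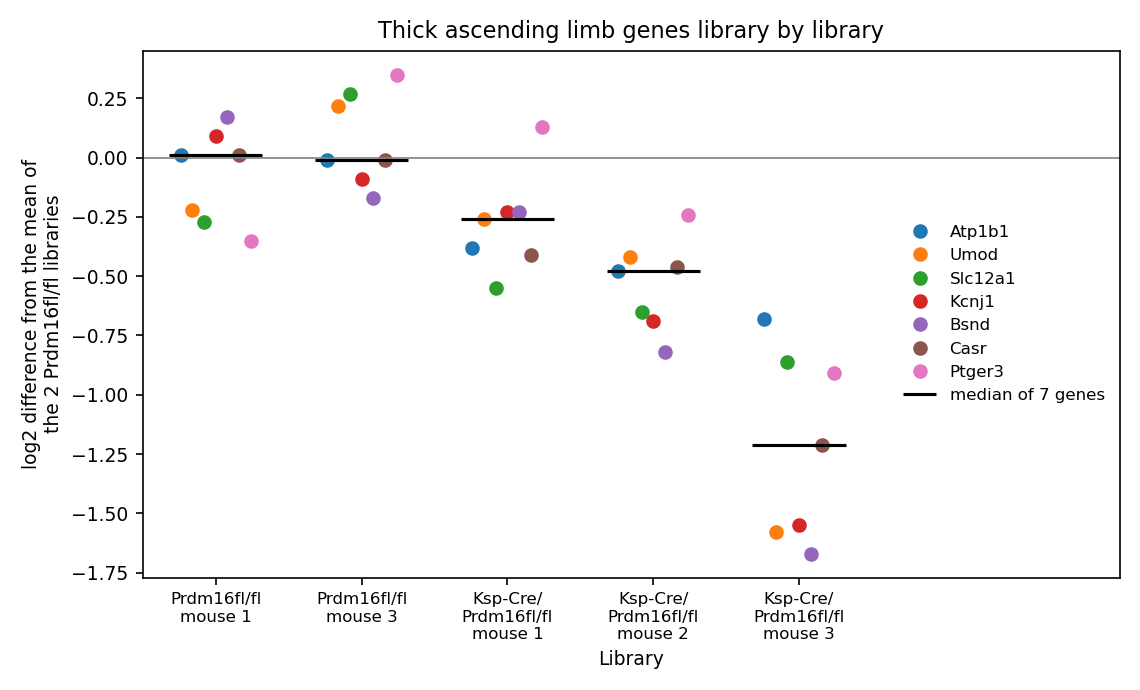
Log2 difference of each gene from the mean of the 2 Prdm16fl/fl libraries, by library, with a bar at the median of the 7 genes. In Ksp-Cre/Prdm16fl/fl mouse 3 Bsnd (-1.67), Umod (-1.58) and Kcnj1 (-1.55) lie lowest. Casr lies at -1.21, Ptger3 at -0.91, Slc12a1 at -0.86 and Atp1b1 at -0.68.

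In mouse 3 the 7 genes were not lower by one common factor. Slc12a1 and Atp1b1 were at 83.6% and 84.4% of the mean of the other Ksp-Cre/Prdm16fl/fl mice, Casr and Ptger3 at 58.3% and 54.6%, and Umod, Kcnj1 and Bsnd at 42.4% to 46.6%. The TPM ratio of Umod to Slc12a1 was 7.07 and 6.57 in the Prdm16fl/fl mice, and among the Ksp-Cre/Prdm16fl/fl mice it was 8.35 in mouse 1, 7.97 in mouse 2 and 4.14 in mouse 3. Together the 7 genes made up 0.558% and 0.569% of all TPM in the Prdm16fl/fl mice, and 0.545%, 0.495% and 0.313% in mice 1, 2 and 3 of the other genotype. Umod supplied 32.002% to 38.4% of that sum in the first 4 of these libraries and 23.1% in mouse 3. Without Atp1b1, the summed TPM was 2264.5 and 2709.3 in the Prdm16fl/fl mice and 2488.0, 2190.9 and 980.23 in the Ksp-Cre/Prdm16fl/fl mice. By that sum mouse 1 lay between the Prdm16fl/fl mice, mouse 2 just under the lower of them, and mouse 3 far below both.

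The Prdm16fl/fl mice also differed from each other, and not in the same direction for all genes. Mouse 3 exceeded mouse 1 by 0.54 in Slc12a1, 0.43 in Umod and 0.70 in Ptger3 on the log2 scale, whereas Kcnj1 and Bsnd were lower in mouse 3 by differences of -0.17 and -0.35. Casr and Atp1b1 differed by -0.02 and -0.01. With 2 mice in this group, the spread of each gene there rests on a single difference.

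By profile over the 5 libraries, measured as the root mean square difference of log2 CPM after centring each gene on its mean, the genes nearest to Slc12a1 were Mrpl34 (0.0624), Fbxl15 (0.0704) and Metrn (0.0759) among 11288 candidates, whose median was 0.445. Those nearest to Umod were Mvk (0.0740), Tmem35b (0.125) and P3h2 (0.127), against a median of 0.633. The mean profile of the 7 genes was nearest to 1190007I07Rik (0.0467), Pcolce (0.0621) and Tk1 (0.0642). Among the 7 themselves, Atp1b1 was nearest to Slc12a1 (0.194) and Kcnj1 to Umod (0.223), while Slc12a1 and Umod were 0.361 apart. None of the 9 neighbours from outside the 7 genes is on the lists of transport genes.

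Of 58 other genes of thick ascending limb transport and its regulation, all passed the filter, and 42 were lower and 16 higher, with a median log2 fold change of -0.27. An adjusted p under 0.05 was reached by 2, both lower, Slc9a3 and Klhl3, against 0.976% of all genes. At an unadjusted p under 0.05 there were 17 lower, against 11.2% of all genes, and 3 higher, against 7.64%. Without Ksp-Cre/Prdm16fl/fl mouse 3, the median was -0.25 and 22 of the 58 passed an adjusted p of 0.05, against 18.9% of all genes, and without any one of the other mice neither these genes nor any other gene tested did.

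**Figure D4:**
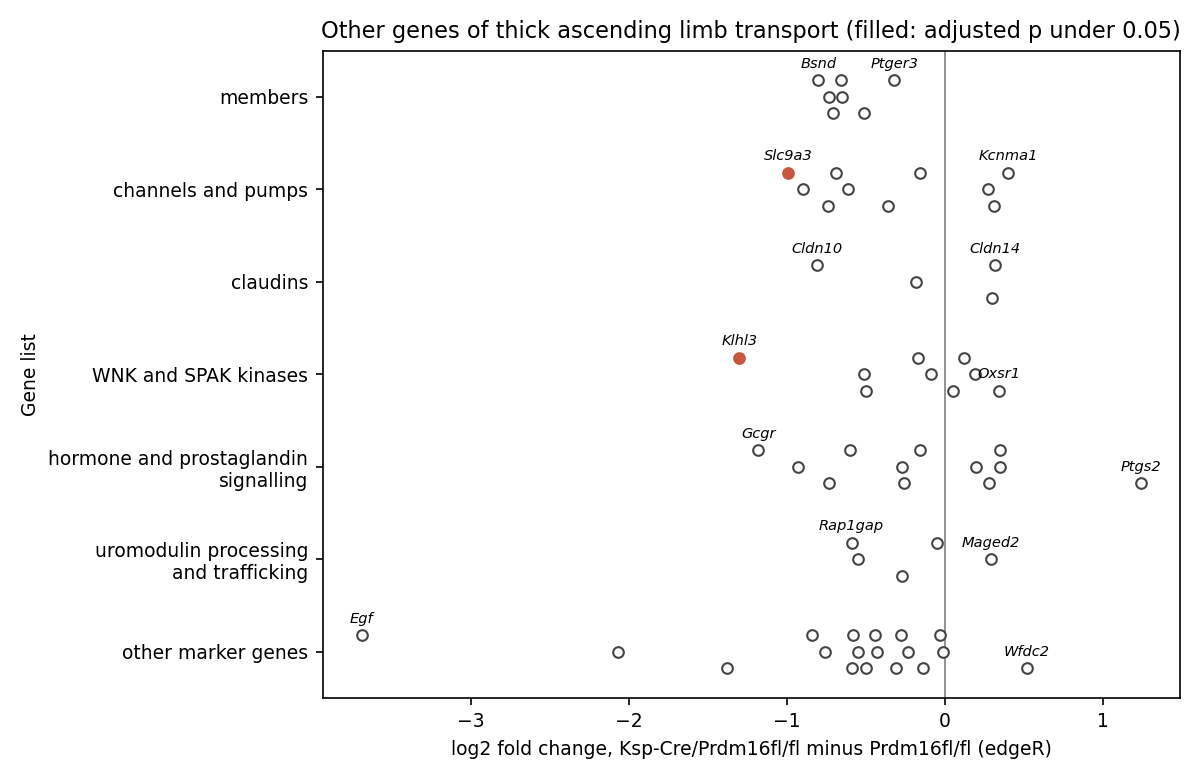
Log2 fold change between genotypes of the 7 genes (top row) and of the 58 other genes in 6 lists, 1 point per gene, filled where the edgeR adjusted p was under 0.05. The 7 genes lie between -0.80 and -0.32, Slc9a3 and Klhl3 are the filled points, and Egf lies farthest left at -3.69.

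Among the 10 channels, exchangers and pump subunits, 7 were lower and 3 higher, with a median of -0.48. Slc9a3, the apical sodium-proton exchanger NHE3, which is also a main transporter of the proximal tubule, was at 134 and 128 CPM in the Prdm16fl/fl mice and at 66.5, 71.4 and 59.7 CPM in the Ksp-Cre/Prdm16fl/fl mice. It fell by 0.99 on the log2 scale (SE 0.12, adjusted p 0.0412), and the adjusted p ran from 1.1e-07 to 0.496 over 16 alternatives, under 0.05 in 7. The highest of the list was the large-conductance potassium channel Kcnma1, at 0.40 (adjusted p 0.489).

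Klhl3, an adaptor that targets WNK kinases for degradation and is abundant in the distal convoluted tubule, was at 57.6 and 44.1 CPM in the Prdm16fl/fl mice and at 24.3, 20.03 and 17.5 CPM in the Ksp-Cre/Prdm16fl/fl mice. It fell by 1.30 on the log2 scale (SE 0.19, adjusted p 0.0467), with adjusted p-values from 7.2e-06 to 0.496 over 16 alternatives, under 0.05 in 5. Of the 9 kinases and partners that regulate cotransporters of the Slc12a1 family, 5 were lower and 4 higher, with a median of -0.09, and the highest was the kinase Oxsr1 at 0.34 (adjusted p 0.191). The 4 claudins of the paracellular cation path had 2 lower and 2 higher and a median of 0.06 (-0.21 without mouse 3), from Cldn10 at -0.81 (adjusted p 0.143) to Cldn14 at 0.32 (adjusted p 0.847), the latter at under 2 CPM in every library.

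Of 12 genes of hormone and prostaglandin signalling, 7 were lower and 5 higher, with a median of -0.21. They ran from the glucagon receptor gene Gcgr at -1.18 (adjusted p 0.0833) to Ptgs2, the inducible cyclooxygenase of the macula densa, at 1.24 (adjusted p 0.1401). Ptgs2 was low throughout, at 1.82 and 1.08 CPM in the Prdm16fl/fl mice and at 3.52, 3.84 and 2.93 CPM in the Ksp-Cre/Prdm16fl/fl mice, with no overlap. The 5 genes of uromodulin processing and of trafficking had a median of -0.27, from Rap1gap at -0.59 (adjusted p 0.216) to Maged2 at 0.29 (adjusted p 0.327).

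The remaining list held 18 other genes known from this segment, of which 17 were lower and 1 higher, with a median of -0.47 and none past an adjusted p of 0.05. Without mouse 3 the median of this list was -0.26, and 5 of the 18 passed, against 18.9% of all genes. Egf, the epidermal growth factor gene made in the thick ascending limb and distal convoluted tubule, was at 512 and 498 CPM in the Prdm16fl/fl mice and at 65.6, 41.6 and 9.93 CPM in the Ksp-Cre/Prdm16fl/fl mice. The groups were far apart, and the log2 fold change of -3.69 (SE 0.68, 95% interval -5.35 to -2.03) was larger than that of any of the 7 genes, yet the adjusted p was 0.0646. Without mouse 3 it was -3.23 with an adjusted p of 0.00017. The one higher gene was Wfdc2, at 0.52 (adjusted p 0.261). Cdh16, whose promoter drives Ksp-Cre, was at 980 and 944 CPM in the Prdm16fl/fl mice and at 868, 890 and 575 CPM in the Ksp-Cre/Prdm16fl/fl mice, so the driver gene was expressed in all 5 kidneys.

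Markers of the neighbouring segments were lower on median in the same kidneys. The 12 proximal tubule markers all lay lower (median log2 fold change -1.31), and 3 of them were called, against 0.708% of all genes. The medians were -0.51 for 6 distal convoluted tubule, -0.64 for 8 principal cell and -0.82 for 6 intercalated cell markers, against -0.66 for the 7 genes. Without Ksp-Cre/Prdm16fl/fl mouse 3 the medians were -1.08 for proximal tubule, -0.36 for distal convoluted tubule, -0.53 for principal cell and -0.64 for intercalated cell markers, against -0.43 for the 7 genes. By library, the distal convoluted tubule markers had medians of -0.08, -0.67 and -1.25 in the Ksp-Cre/Prdm16fl/fl mice, and the proximal tubule markers -1.06, -1.05 and -1.75, beside -0.26, -0.48 and -1.21 for the 7 genes.

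**Figure D5:**
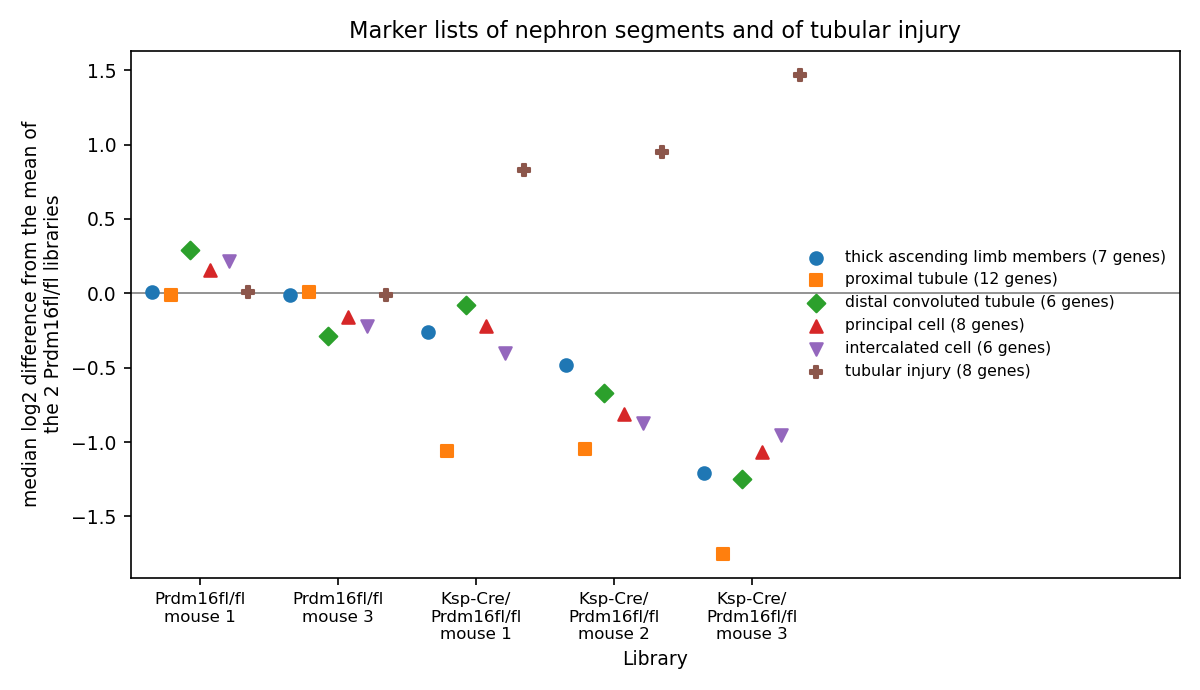
Median log2 difference of each marker list from the mean of the 2 Prdm16fl/fl libraries, 1 symbol per list and library. In the 3 Ksp-Cre/Prdm16fl/fl libraries the 7 thick ascending limb genes lie at -0.26, -0.48 and -1.21, the proximal tubule markers lower, and the tubular injury markers above 0 (0.83, 0.95 and 1.47).

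All 8 tubular injury markers were higher, with a median of 1.18, and none passed an adjusted p of 0.05. Without mouse 3 the median was 0.94 and all 8 passed, against 18.9% of all genes. Their summed level, 13483 and 14601 CPM in the Prdm16fl/fl mice and 29062, 30289 and 36075 CPM in the Ksp-Cre/Prdm16fl/fl mice, was nearly all Spp1, the osteopontin gene, which alone was at 12277 and 13442 CPM and at 27016, 28061 and 33774 CPM. The injury median was highest in mouse 3, where the 7 genes were lowest, but this did not hold for every injury marker. Lcn2, Krt20, Sox9, Cdkn1a and Spp1 were highest in that mouse, whereas Havcr1, Krt8 and Vcam1 were lower there than in mice 1 and 2 of its genotype. The 5 red blood cell markers were also higher, with summed levels of 6.67 and 10.8 CPM against 151, 150 and 40.5 CPM, and the 5 fibroblast and pericyte markers had a median of 0.44. Medians were -0.64 for podocyte, -0.15 for endothelial (-0.33 without mouse 3), 0.24 for macrophage (0.40 without it), -0.35 for lymphocyte (-0.04 without it) and -0.22 for thin limb and medullary markers. The part of other cell types, of injury and of blood in the levels of the 7 genes was not tested.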

How the data were processed

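Kidney libraries of 2 Prdm16fl/fl and 3 Ksp-Cre/Prdm16fl/fl mice after UIRI were grouped by their labels. The authors deposited, per gene, the raw count together with TPM and FPKM, which scale that count by gene length and library total. The submitters' processing notes name CASAVA, featureCounts 2.0.1 and DESeq2 1.16.1, and the aligner and strand setting are not given in the sources used here. Counts were filtered with filterByExpr, scaled by TMM and tested with the quasi-likelihood test of edgeR 4.0.16 (R 4.3.3) without covariates. Calls required an adjusted p below 0.05 with a log2 fold change beyond 1 in either direction. Total counts of 14939040 to 16425161 keep counting error small for these genes. The Poisson interval of a count covers counting error only, and intervals of fold changes come from the standard errors of the fit. P-values rest on 3 mice against 2, for which a two-sided exact rank test cannot go below 0.2.

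The 7 genes, 58 transport genes in 6 lists and 12 marker lists were chosen with earlier results of these data known. In each transport list, genes with an adjusted p under 0.05 and the genes with the lowest and highest fold change are named, and the 3 nearest profiles are among genes whose log2 CPM averaged 3 or more. Cdh16, beyond this rule, was chosen after its values were seen. Some genes of the lists are not reported here by name. Alternatives were DESeq2 1.42.0, other scalings and filters, limma 3.58.1 on log2(FPKM + 1) and log2(FPKM + 0.1), length and GC offsets (loess span 0.3), a block on mouse number and leaving out each mouse. On simulated counts for this comparison (16109 genes), edgeR found 71.7% of the 99 genes with a simulated log2 change of 1.5, 97% of the 100 with one of 3, and wrongly called 0.126% of the 15910 others. Changes as small as those of the 7 genes were not simulated, nor was an outlying library, so these rates do not apply to the 7 genes. Mitochondrial chromosome genes were not analysed here.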

Additional observations from a re-analysis of the deposited data

How the results depend on the processing

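Over 16 alternatives the log2 fold changes of the 7 genes gave 112 values, of which 107 kept their direction and their side of an adjusted p of 0.05, 4 moved past it and 1 reversed. The reversed value was Ptger3 at 0.07 without Prdm16fl/fl mouse 3. The count of the 7 genes past an adjusted p of 0.05 rose from 0 to 2 with DESeq2 (Slc12a1 -0.71 and Atp1b1 -0.51), and leaving out 1 mouse gave 0 to 2, with 2 only without Ksp-Cre/Prdm16fl/fl mouse 3 (Slc12a1 -0.62, Casr -0.43). Leaving out 1 mouse gave -0.95 to -0.41 for Slc12a1, -0.90 to -0.35 for Umod, -1.06 to -0.44 for Kcnj1, -1.19 to -0.50 for Bsnd, -0.79 to -0.43 for Casr, -0.63 to 0.07 for Ptger3 and -0.58 to -0.43 for Atp1b1. In a fit where 1 Prdm16fl/fl mouse remained, that mouse was assumed to vary like the other group.

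The 2 transport genes past an adjusted p of 0.05 became 9 with DESeq2, 6 without a count filter, 1 with upper quartile scaling, 1 with length and GC offsets, and 0 with library size scaling, with limma at either FPKM pseudocount, and with the offsets and the replicate block together. Leaving out 1 mouse gave 0 to 22. Genes with all Ksp-Cre/Prdm16fl/fl libraries below both others were 6 of 7 on TMM-scaled CPM and 3 of 7 on CPM by library size and on TPM.

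Mice 1 and 3 of each genotype share a number, and the labels do not say that they were paired. The correlation of their deviations from the group means was 0.00102 for the mice numbered 1 and -0.022 for those numbered 3. With 2 Prdm16fl/fl mice the deviations in that group mirror each other, so these values cannot decide whether same-numbered mice were paired. With mouse number as a replicate block no gene of the 7 and 0 of the 58 passed, and the log2 fold changes were -0.71 for Slc12a1, -0.92 for Umod, -0.89 for Kcnj1, -0.94 for Bsnd, -0.81 for Casr, -0.39 for Ptger3 and -0.53 for Atp1b1. Ksp-Cre/Prdm16fl/fl mouse 2 has no Prdm16fl/fl mouse of the same number, so it does not inform the genotype difference in the block fit. That difference rests on mice 1 and 3 of each genotype, and so more on the outlying Ksp-Cre/Prdm16fl/fl mouse 3. What else moved these values was not tested. Of all genes, 160 passed an adjusted p of 0.05 in edgeR, 1200 in DESeq2, 51 with library size scaling, 43 with length and GC offsets, 53 with limma on log2(FPKM + 1), 13 with a pseudocount of 0.1, 471 without a filter, 0 with the block, and 0 to 3053 on leaving out 1 mouse (3053 without Ksp-Cre/Prdm16fl/fl mouse 3, otherwise 0). Higher genes were 11.2% of those called in edgeR, 22.7% in DESeq2 and 26.1% with library size scaling.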
